A study of Mus musculus with 4 samples.

Results

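The Skint genes of mouse chromosome 4 are a cluster of neighbouring genes that span 2080 kb of the build mm10, from 111919555 to 113999503. Skint1 to Skint10 were taken by symbol, 10 of 21887 protein-coding genes on the placed chromosomes. They were followed with 100 kb on each side through the authors' lists of regions enriched for trimethylated lysine 9 of histone H3 (H3K9me3). The cluster was selected on its coverage by islands in these same lists, so every level below is a description and carries no test. The data come from wild-type C57BL/6 CD8+ T cells. One group was stimulated in culture until day 3 with anti-CD3 and anti-CD28 antibodies plus interleukin-2, and the other is naive cells at day 0. Each day has 1 native ChIP library, made from 4000000 cells whose chromatin was cut with micrococcal nuclease, so no difference between the days has a replicate check. The inputs of both days were not analysed here. The sources used here do not say how the cells were purified or how many mice gave them.

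Skint stands for selection and upkeep of intraepithelial T cells. The founding member, Skint1, is made by thymic epithelial cells and by keratinocytes of the skin, and mice need it for the development of the γδ T cells that populate the epidermis. The proteins resemble butyrophilins, with immunoglobulin-like domains outside the cell and several membrane-spanning segments. H3K9me3 is a mark of heterochromatin, laid down by methyltransferases such as Setdb1 and Suv39h1 and bound by HP1 proteins. It is common over repeats and over tandem families of genes that a cell type does not use.

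In these lists neighbouring enriched windows are merged into islands, and an island's value is the number of ChIP reads inside it, not scaled for depth. There were 47553 islands (10423178 reads) in the day 3 list and 19989 (3402787 reads) in that of day 0. The lists differ in length, and the absence of an island shows only that no region passed the authors' threshold. The marker genes of the labelled cells cannot be checked through this mark as expression could. None of 8 CD8 T cell genes (Cd8a, Cd8b1, Cd3e, Cd3d, Cd3g, Cd2, Lck and Thy1) carried an island on day 3 or on day 0. The same held for 8 skin and thymic epithelial genes (Krt5, Krt14, Krt1, Krt10, Epcam, Foxn1, Psmb11 and Aire). An island reached 27.1% of all protein-coding genes on day 3 and 22.7% on day 0. Of these marker gene bodies, only those of Lck (25.3 kb) and Foxn1 (29.2 kb) exceeded the median of 17.2 kb over all protein-coding genes.

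Most of the Skint genes carried H3K9me3 islands on day 3, while the share on day 0 was near that of all protein-coding genes. An island reached the body of 8 of the 10 members on day 3 and of 2 on day 0, while one reached 27.1% of all protein-coding genes on day 3 and 22.7% on day 0. The members have long bodies, from 15.3 kb (Skint7) to 521.6 kb (Skint5). Their median was 56.0 kb, against 17.2 kb over all protein-coding genes. Among the 11435 protein-coding genes of that range of lengths, an island reached 43.5% on day 3 and 37.6% on day 0. Since these values chose the members, nothing is read from the contrast with the background. The count on day 3 was 4 members under each of a pair of stricter selections of islands, given in the closing section.

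**Figure D1:**
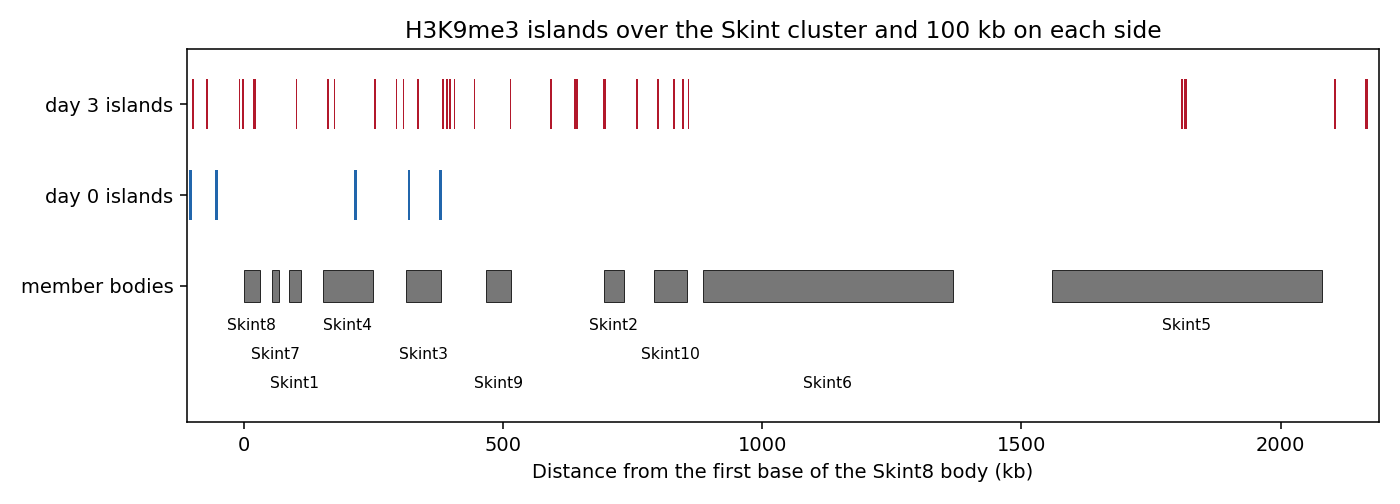
Islands of day 3 (red, upper row) and day 0 (blue, middle row) and the bodies of the members (grey, lower row), by distance in kb from the first base of Skint8, with every bar to scale. Of the 25 day 3 islands of the cluster, 22 lie from Skint8 to Skint10, 1 just after Skint10 and 2 in Skint5, and the 3 day 0 islands of the cluster lie over Skint4 and Skint3.

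More bases were covered on day 3 than on day 0 in 7 members, against 21.5% of all protein-coding genes. Fewer were covered on day 3 in 1 member, Skint3, against 12.1% of all genes. The remaining 2, Skint7 and Skint6, had no island on either day. The median covered share of the 10 bodies was 6.58% on day 3 and 0% on day 0, and the median over all protein-coding genes was 0% on both days.

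Skint1 (112006269 to 112029538), the gene needed for epidermal γδ T cells, had 2 kb (8.59%) of its body covered on day 3 and nothing on day 0. Its single island held 118 reads and lay 14.3 kb downstream of the start. Skint8 (111919555 to 111950361), the first gene of the cluster, had 5.4 kb (17.5%) inside 1 island on day 3, and none on day 0. The neighbour between them, Skint7 (111972924 to 111988260), is the shortest member and was free of islands.

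Skint10 (112710830 to 112774861) had the highest coverage of the members, with 12.6 kb (19.7%) inside 3 islands on day 3 that held 574 reads together. Naive cells showed none there. None of the 3 islands was left under either of the stricter selections, the median density and the shortened day 3 list, so that the difference was then 0. Skint2 (112613598 to 112652248), also named B7S3 after the B7 family of costimulatory ligands, had 4.00 kb (10.4%) covered on day 3 and none on day 0. Skint9 (112385969 to 112433985) was touched by an island over only 0.385 kb, or 0.802%, on day 3, and by none on day 0. That island held 125 reads and lay across the start of the gene.

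Skint4 and Skint3 were the members with islands on both days. Skint4 (112072016 to 112168076) had 7 kb (7.29%) under 3 islands with 403 reads on day 3. On day 0 it had 5.2 kb (5.41%) under 1 island with 171 reads. Skint3 (112232245 to 112300468) had 4 kb (5.86%) under 1 island with 239 reads on day 3, against 8.07 kb (11.8%) under 2 islands with 301 reads on day 0. The direction of both genes depended on the islands counted. The difference in Skint3, day 3 less day 0, was -5.96 points of the body and turned to 0.487 points when islands under 34.1 reads per kb, the lowest density in the day 3 list, were left out. The difference in Skint4 was 1.87 points and turned to -5.41 points when as many day 3 islands as day 0 islands, those with the most reads, were kept.

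Few day 3 islands of the cluster met a day 0 island. In the whole cluster, 1 of 25 day 3 islands overlapped a day 0 island, and 1 of 3 day 0 islands overlapped a day 3 island. That is 4% of the day 3 islands and 33.3% of the day 0 islands, while 14.9% of all day 3 islands and 33.6% of all day 0 islands did so across the genome. The pair lay in Skint4, at 112137201 to 112138400 on day 3 and 112132801 to 112138000 on day 0, and shared 800 bases. The day 3 island of the pair held 96 reads (95% Poisson interval 78 to 117) and the day 0 island 171 reads (146 to 199). At the end of Skint3 the days stood side by side without overlap. A row of 4 day 3 islands, picked out after its values were seen, ran from 112301201 to 112327000 just after the gene with 702 reads, and a day 0 island (112296801 to 112301000, 163 reads) ended 200 bases before it.

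**Figure D2:**
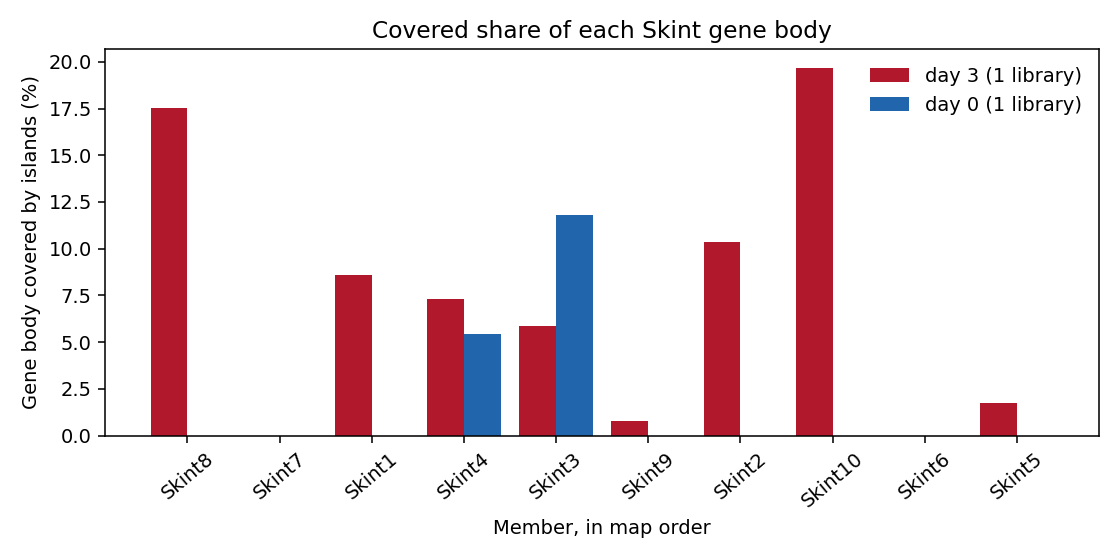
Percentage of each member's body inside islands, in map order, on day 3 (red, left bar) and day 0 (blue, right bar), with 1 library per day and hence no error bars. Skint10 and Skint8 have the highest bars on day 3 at 19.7% and 17.5%, Skint3 alone has a higher bar on day 0, and Skint7 and Skint6 have none.

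The cluster was divided into a stretch with most of the islands and an almost empty one. This division, between Skint10 and Skint6, was not planned before the values were seen. From Skint8 to Skint10, 855 kb held 22 islands that covered 81.2 kb or 9.49% on day 3. On day 0 the same stretch held 3 islands that covered 13.8 kb or 1.61%. The autosomes as a whole were covered over 8.07% on day 3 and 4.08% on day 0. From Skint6 to Skint5, 1195 kb held 2 islands that covered 9.2 kb or 0.770% on day 3, and none on day 0. Both of these lay inside Skint5 (113477891 to 113999503), at 113728201 to 113731600 with 172 reads and 113733201 to 113739000 with 269 reads. They made up 1.76% of the Skint5 body on day 3.

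Skint6 (112804616 to 113286973), whose body is 482 kb long, had no island on day 3 or on day 0. It lay wholly inside an island-free stretch of 949 kb on day 3, from 112779201 to 113728200. Of 47526 gaps between neighbouring day 3 islands on the autosomes, 108 were longer, and the median gap was 18.4 kb. On chromosome 4 it ranked 11 of 2759. On day 0 the stretch without an island ran for 2047 kb, from 112301001 to 114348200, and held Skint9, Skint2, Skint10, Skint6 and Skint5 whole. It ranked 22 of 19965 autosomal gaps of day 0, whose median was 54 kb. Among the 232 autosomal protein-coding genes at least as long as Skint6, 9 had no island on day 3, and Skint6 was the 1 gene with none on either day. Of the 11 such genes on chromosome X, which is nearly free of islands in both lists, 10 had none on either day. The length limit of this comparison is that of Skint6 itself. Neither the comparison nor the ranking of gaps was planned before the values were seen, so nothing is read from them. Whether reads can be placed uniquely in Skint6 and Skint5 was not tested.

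**Figure D3:**
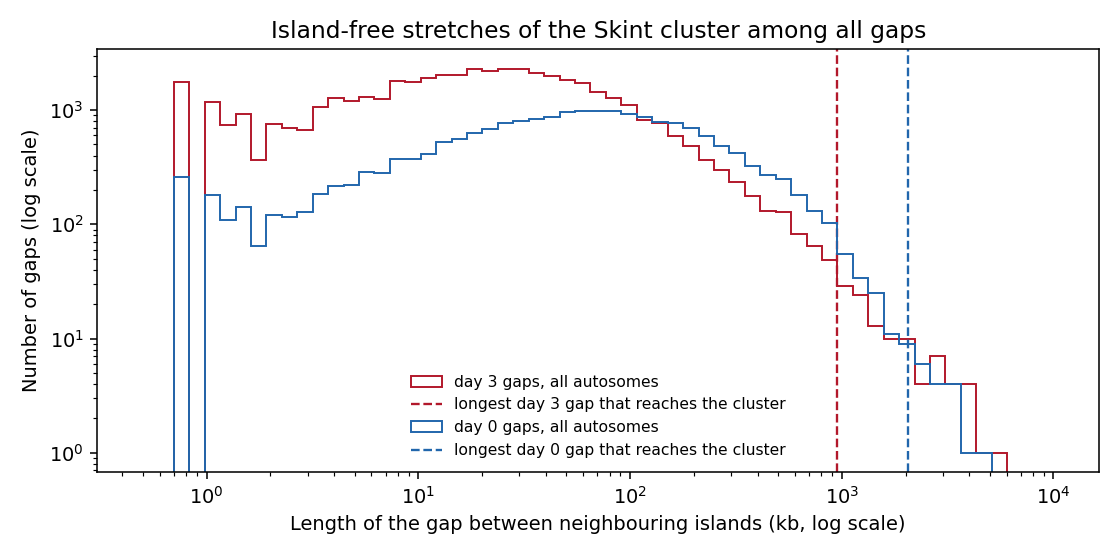
Number of island-free gaps by their length in kb, both on log scales, for all autosomes on day 3 (red) and day 0 (blue), with dashed lines at the longest gap that reaches the cluster on each day. The dashed lines, at 949 kb on day 3 and 2047 kb on day 0, stand in the right tail of their own distributions, whose medians are 18.4 kb on day 3 and 54 kb on day 0.

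Over its whole span the cluster was covered less than the autosomes as a whole. Islands covered 93 kb or 4.47% of it on day 3 and 13.8 kb or 0.663% on day 0. The autosomes were covered over 8.07% on day 3 and 4.08% on day 0. When the autosomes were tiled with 1170 windows as long as the span, the median window was covered over 7.20% on day 3 and 3.65% on day 0. The cluster exceeded 30.3% of the windows on day 3 and 5.81% of them on day 0. Within the span, the bodies of the members were covered over 3.21% on day 3 and 0.956% on day 0, and the sequence between them over 7.0% on day 3 and 0.0769% on day 0. Of the 25 day 3 islands, 13 touched a member and 12 did not.

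Within 2 kb of a listed start, 5 of the 10 members had an island on day 3 and none had one on day 0. Of 17492 protein-coding genes with a listed start, 10.5% had one on day 3 and 5.5% on day 0. With so low a share over all genes, the absence on day 0 says nothing particular about the 10 members. Since the members were chosen on their coverage, nothing is read from the contrast on day 3 either. The 5 were Skint8, Skint4, Skint9, Skint2 and Skint10. The day 3 count was 3 with islands of at least the median density of their list, and 1 with the day 3 list cut to the number of day 0 islands. Of the 11 listed starts, 3 lay inside a day 3 island. They were the start of Skint2, the start of Skint9 and the second, internal start of Skint4. The island at Skint2 (112612201 to 112617600, 264 reads) covered 88.5% of the 2 kb on each side, that at the internal start of Skint4 (112080801 to 112084000, 169 reads) 66.7% and that at Skint9 (112433601 to 112435400, 125 reads) 45.0%. At Skint8 an island with 174 reads ended 0.355 kb upstream of the start, and at Skint10 one with 163 reads ended 1.74 kb upstream. The nearest island to the start of Skint6 on day 3 was 441 kb away. On day 0 the nearest approach to any start was at Skint3, where an island began 3.76 kb downstream.

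**Figure D4:**
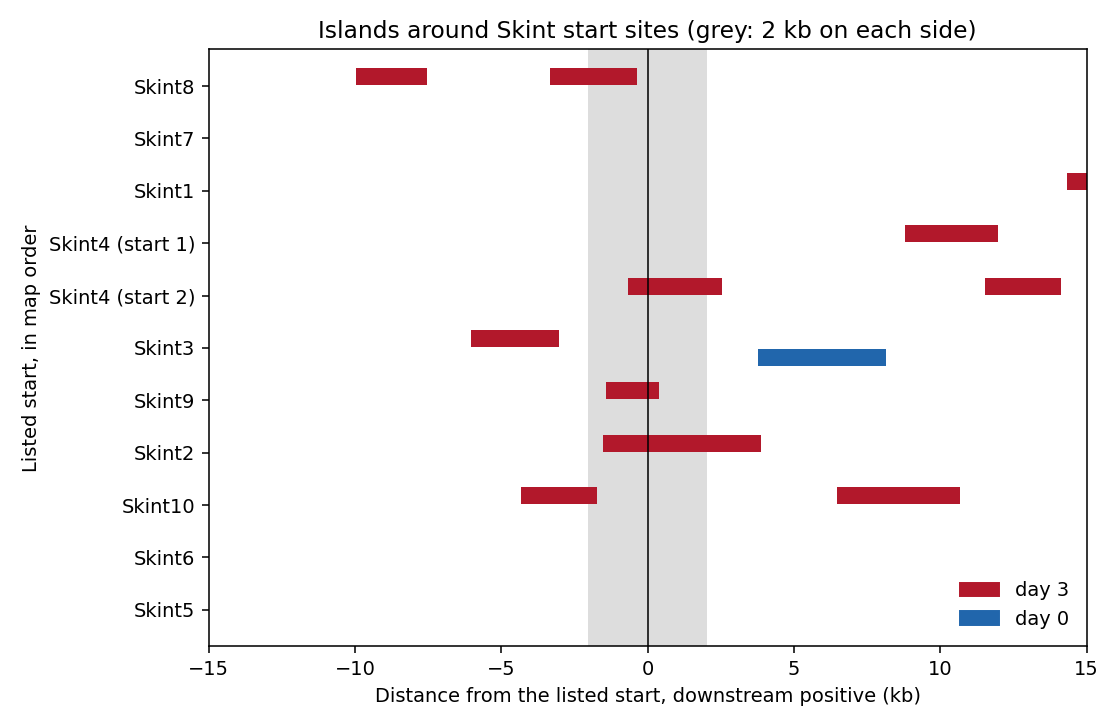
Islands within 15 kb of each of the 11 listed starts of the members, oriented so that downstream is to the right, with day 3 (red) above day 0 (blue) in each row and the 2 kb on each side in grey. Day 3 islands cross the start in Skint2, Skint9 and the second start of Skint4, no day 0 island enters the grey band, and Skint7, Skint6 and Skint5 have nothing within 15 kb.

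The promoter sequences are shown to compare starts inside day 3 islands with related starts outside them. The windows below run from 250 bases before to 50 bases after the start, 5′ to 3′ on the gene's own strand, from RefSeq on GRCm38.p6, the assembly that mm10 names. All 10 members had at least 1 window in that table. The first group holds the windows that lay wholly inside a day 3 island, at chr4:112613490-112613789 (plus strand), chr4:112433936-112434235 (minus strand) and chr4:112081220-112081519 (plus strand).
Skint2: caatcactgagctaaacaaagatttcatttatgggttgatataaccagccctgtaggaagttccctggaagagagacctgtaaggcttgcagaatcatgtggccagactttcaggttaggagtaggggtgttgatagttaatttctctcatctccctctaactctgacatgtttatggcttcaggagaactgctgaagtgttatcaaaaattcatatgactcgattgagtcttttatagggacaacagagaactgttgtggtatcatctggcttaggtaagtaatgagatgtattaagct
Skint9: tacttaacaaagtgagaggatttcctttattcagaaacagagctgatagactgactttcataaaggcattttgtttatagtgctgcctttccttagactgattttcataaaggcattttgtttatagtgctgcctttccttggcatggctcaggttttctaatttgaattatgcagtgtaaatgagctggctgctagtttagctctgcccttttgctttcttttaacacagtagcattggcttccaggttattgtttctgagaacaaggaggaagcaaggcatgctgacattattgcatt
Skint4 internal start: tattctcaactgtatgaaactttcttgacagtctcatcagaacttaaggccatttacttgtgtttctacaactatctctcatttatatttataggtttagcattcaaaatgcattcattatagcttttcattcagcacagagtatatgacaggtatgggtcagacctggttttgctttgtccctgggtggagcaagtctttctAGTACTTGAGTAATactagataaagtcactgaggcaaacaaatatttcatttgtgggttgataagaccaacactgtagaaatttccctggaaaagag
The second group holds related windows that lay outside islands on both days, at chr4:112774812-112775111, chr4:113286924-113287223 and chr4:113999454-113999753, all on the minus strand.
Skint10: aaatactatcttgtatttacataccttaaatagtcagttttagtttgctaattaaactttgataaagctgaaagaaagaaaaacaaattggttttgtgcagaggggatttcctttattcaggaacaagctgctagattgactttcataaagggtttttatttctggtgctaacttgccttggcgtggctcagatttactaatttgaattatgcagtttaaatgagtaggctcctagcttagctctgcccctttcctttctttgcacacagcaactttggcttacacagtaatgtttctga
Skint6: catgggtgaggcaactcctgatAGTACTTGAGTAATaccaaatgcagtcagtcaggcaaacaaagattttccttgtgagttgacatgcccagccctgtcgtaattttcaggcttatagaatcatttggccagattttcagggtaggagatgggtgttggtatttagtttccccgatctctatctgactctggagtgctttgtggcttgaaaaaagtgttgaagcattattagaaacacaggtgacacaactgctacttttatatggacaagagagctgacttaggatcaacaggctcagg
Skint5: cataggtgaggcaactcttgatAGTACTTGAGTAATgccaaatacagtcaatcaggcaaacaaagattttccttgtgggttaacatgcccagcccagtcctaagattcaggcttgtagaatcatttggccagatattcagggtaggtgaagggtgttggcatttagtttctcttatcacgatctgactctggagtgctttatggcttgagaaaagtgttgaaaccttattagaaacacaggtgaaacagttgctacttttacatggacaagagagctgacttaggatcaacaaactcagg
Capitals mark AGTACTTGAGTAAT. A search listed the runs of 12 letters shared by the largest number of member genes. The first of them in alphabetical order was extended for as long as the same genes shared it. Any other run with that count was not extended, so the marked run may not be the longest.

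That run of 14 letters stood in the windows of Skint1, Skint3, Skint4 (internal start), Skint6 and Skint5, on the gene's strand each time. Searched on both strands, it stood in these 5 and no other of 32851 RefSeq promoter windows, or 0.0152%. The run was chosen because these windows share it, so its presence in them was given and nothing is read from this count. Of its 5 windows, 1 lay in a day 3 island, and the windows of Skint2 and Skint9, which also lay in day 3 islands, do not hold it. Skint6 and Skint5 had the closest pair of windows, with 269 identical bases in 300 aligned columns and an exact shared run of 30 bases. Their nearest day 3 islands were 441 kb and 22.7 kb from the start. Skint2 aligned with Skint6 over 278 columns at 68.3% identity, and Skint9 with Skint10 over 168 columns at 82.1%. In both of these pairs the first window lay in a day 3 island and the second did not. Skint8 and Skint7 shared an exact run of 51 bases, the longest between any of the 12 windows compared, Skint11 included. The member windows were poor in CpG, with a median of 1 CpG (range 0 to 2) and 38.7% GC. All 21263 protein-coding windows had a median of 13 CpG and 56.3% GC.

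The read density of the islands in the cluster lay near the median of each list. On day 3 the 25 islands held 4779 reads, at a median of 52.8 reads per kb (range 42.9 to 80) against 52.9 over all day 3 islands, and 12 of them stood above that median. On day 0 the 3 islands held 472 reads, at 32.9, 31.4 and 38.8 reads per kb from Skint4 to the end of Skint3, against a median of 34.1 over all day 0 islands. The ratio of the medians, day 3 over day 0, was 1.61 without scaling. It was 1.03 after division by the median density of each list, and 0.524 after division by the reads inside all islands of each list, so its direction rests on the scaling. The densest island was the one of 1.2 kb in Skint4 that met a day 0 island, and the least dense on day 3, at 42.9 reads per kb, was the first of those just after Skint3.

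**Figure D5:**
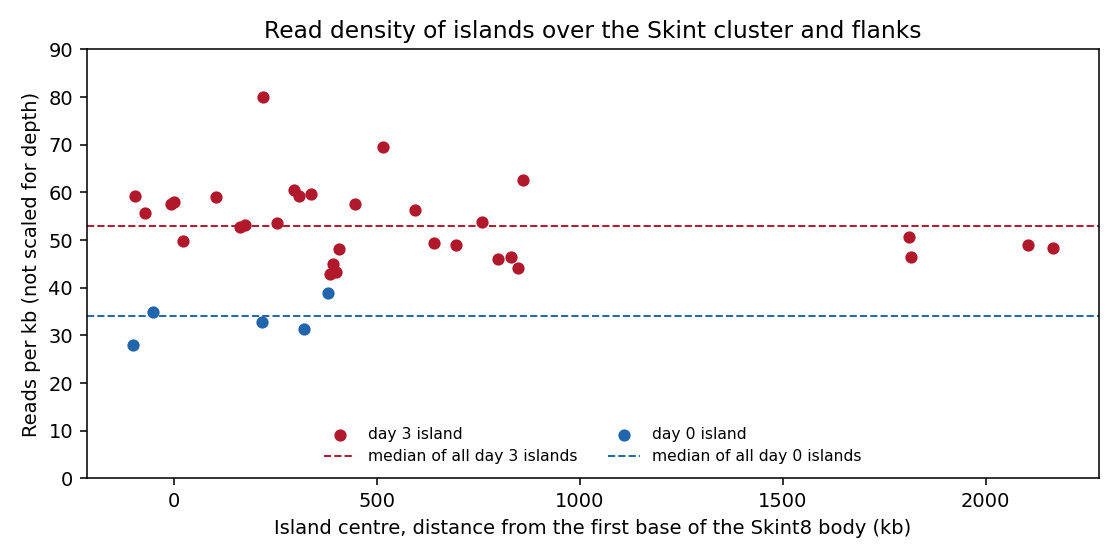
Reads per kb of each island in the cluster and its flanks, not scaled for depth, by distance in kb of the island's centre from the first base of Skint8, on day 3 (red) and day 0 (blue), with dashed lines at the median of each whole list. The day 3 points scatter around their line at 52.9 reads per kb, and the day 0 points around theirs at 34.1.

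By reads, the leading island of the cluster on day 3 lay in no Skint gene. It ran from 112556601 to 112564200 over the low-coordinate edge of the pseudogene Gm12814 and held 375 reads (95% Poisson interval 338 to 415). The next lay in the pseudogene Gm12819 (112509201 to 112514000) with 270 reads (239 to 304). They were followed by that in Skint8 (111937201 to 111942600, 269 reads, 238 to 303), the longer of those in Skint5 (269 reads, 238 to 303) and that at the start of Skint2 (264 reads, 233 to 298). The longest on day 0 were the island of 5.2 kb in Skint4 and one of 4.4 kb in Skint3 (112236001 to 112240400) with 138 reads (116 to 163). Of the 9 annotated pseudogenes in the cluster and its flanks, Gm12814 and Gm12819 had an island on day 3 and none had one on day 0. Those reached were the longest of the 9, at 33.6 kb and 47.7 kb. Gm12813 has 26.3 kb, and the rest have at most 1.58 kb. The share over all pseudogenes is not given here.

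Both flanks of the cluster held islands on day 3, though not under every selection of islands. The 100 kb before Skint8 were covered over 11.4% on day 3 and 6.45% on day 0, and the 100 kb after Skint5 over 10.8% on day 3 and 0% on day 0. The left flank had 0% on day 3 with the day 3 list cut to the number of day 0 islands, and the right flank had 0% on day 3 with islands of at least the median density. Before the cluster, Slc5a9, a sugar transporter gene, had no island on either day. Beyond it Spata6, a gene needed to build the neck of sperm, had 43.4 kb (39.7%) covered on day 3 and 6.2 kb (5.68%) on day 0. With 200 kb in place of 100 kb, the left flank was covered over 26.2% on day 3. After the cluster, Skint11 (114163384 to 114245028), a relative that is not a member, had no island on either day. The last day 3 island inside the right flank (114082601 to 114088400, 280 reads) was followed by the next only at 114391401. On the left, the first day 3 island inside the flank (111820201 to 111822800, 154 reads) followed one just outside it (111793201 to 111804200, 572 reads).

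When islands under 50 kb apart were joined, day 3 gave 7 joined stretches that reached a member. That limit lies above the median autosomal gap on day 3 (18.4 kb) and below that on day 0 (54 kb). The longest stretch ran for 285.4 kb, from 112080801 to 112366200, with 12 islands over Skint4, Skint3 and the sequence after them. Islands covered 13.4% of it. Others reached Skint2 over 108.4 kb (16.4% inside islands) and Skint10 over 102.2 kb (18.2% inside islands). On day 0 each of the 3 islands stood alone, and the longest stretch was 5.2 kb. With a limit of 100 kb, 40 day 3 islands joined into 1 stretch of 1232 kb from 111547001, before Spata6, to 112779200. That stretch reached 7 members, ended just past Skint10 and was 12.8% inside islands.

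Other families of clustered genes give the scale for these values. The share of genes with an island was 80% on day 3 and 20% on day 0 for Skint. It was 24.4% on day 3 and 5.69% on day 0 for the 123 Vmn2r vomeronasal receptors, 27.7% on day 3 and 2.13% on day 0 for the 47 Cyp2 cytochrome genes, and 19.2% on day 3 and 3.85% on day 0 for the 52 Serpina and Serpinb protease inhibitors. The pooled covered share of the bodies was 3.21% on day 3 and 0.956% on day 0 for Skint, 5.58% on day 3 and 1.19% on day 0 for Vmn2r, and 8.18% on day 3 and 3.78% on day 0 for the 23 natural killer receptor genes of the Klr families. It was lower than for Skint on day 3 in the 22 Mup genes, which encode urinary proteins (2.30% on day 3 and 0% on day 0), and in the 70 defensin genes (2.14% on day 3 and 2.49% on day 0). Cyp2 had 5.15% on day 3 and 0.132% on day 0, and the serpins 7.45% on day 3 and 0.548% on day 0. Over all protein-coding genes it was 9.03% on day 3 and 4.87% on day 0. The median Skint body was 56.0 kb long, against 24.5 kb for Vmn2r and 24.1 kb for Cyp2. It was 14.5 kb for Klr, 10.8 kb for the serpins, 4.01 kb for Mup and 1.92 kb for the defensins. A longer body is more readily reached by an island, and Skint was chosen on its coverage. No test of these differences was made.

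Of 17 annotated Skint relatives in the butyrophilin and B7 families, an island reached 8 on day 3 and 3 on day 0. The share over all protein-coding genes was 27.1% on day 3 and 22.7% on day 0. Among those of the range of lengths of the Skint bodies it was 43.5% on day 3 and 37.6% on day 0. The bodies of the relatives ran from 8.93 kb (Btn1a1) to 97.2 kb (Cd86), so some were shorter than that range. Pdcd1lg2 and Cd274, which encode the ligands of the inhibitory receptor PD-1, were covered over 18.7% and 15.4% of their bodies on day 3 and had none on day 0. Cd80 was covered over 14.5% on day 3 and not on day 0, and Cd86, which shares its receptors CD28 and CTLA-4, over 9.67% on day 3 and 3.91% on day 0. Btn1a1, which encodes butyrophilin of milk fat, was covered over 58.2% on day 3, Btnl1, which acts in the selection of intestinal γδ T cells, over 23.0% and Btnl2 over 3.35%. None of these Btn and Btnl genes had an island on day 0. Vtcn1, which encodes the inhibitory ligand B7-H4, was covered over 9.24% on day 3 and 3.08% on day 0. Btnl9 had no island on day 3 and was covered over 26.0% on day 0.

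Of 15 genes of γδ T cells, 2 carried an island on day 3 and 1 on day 0, beside the same 27.1% on day 3 and 22.7% on day 0 over all protein-coding genes, and the receptor segments in this list are short. Klrk1, which encodes the activating receptor NKG2D, was covered over 55.8% on day 3 and not on day 0. Zbtb16, which encodes the factor PLZF of innate-like T cells, was covered over 1.95% on day 3 and not on day 0. Itgae, the integrin chain CD103 of epithelial T cells, had no island on day 3 and was covered over 6.67% on day 0. The γδ receptor segments Trgv5, Trgv6, Trgv7, Trdv4, Trgc1 and Trdc had no island on either day.

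The median difference of the 10 Skint bodies, day 3 less day 0, was 1.82 points. The protein-coding genes of at least 10 kb nearest to it were Il31ra (12.2% on day 3 and 10.4% on day 0), Gnb5 (1.82% on day 3 and 0% on day 0) and Spdya (7.24% on day 3 and 5.43% on day 0). This likeness rests on 1 difference between 2 libraries.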

How the data were processed

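H3K9me3 islands of 2 native ChIP libraries (day 3 and day 0 CD8+ T cells, 1 each) were analysed. Per the submitters' processing notes, which name Bowtie2, SICER 1.1 and mm10, the authors made the island lists. The sources used here do not give thresholds, gap size, the handling of duplicate and multiply mapped reads or the use of the input. The deposited value per island has no header and was taken as the authors' raw count of ChIP reads, which they had not scaled for depth, length or input. Total mapped reads are unknown, and the labels state around 100000000 paired-end reads of 150 bases per sample.

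Islands were converted to 1-based coordinates. Gene bodies and starts came from RefSeq tables of GRCm38.p6. A gene counted as reached by an island from an overlap of 1 bp with its body, and covered bases were counted in Python 3.11.15 with numpy 2.4.6. Read counts have exact 95% Poisson intervals from scipy 1.17.1, which cover counting error only, since PCR reads without molecular identifiers are not independent molecules. Promoter windows were aligned locally with biopython 1.88 (match 1, mismatch -1, gap opening -3, extension -1). The interval arithmetic was tested on simulated islands.

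All 10 members were named, with every other protein-coding gene in the cluster or its flanks, Skint11, the listed relatives with an island and the 3 genes nearest in median difference. For islands, the 5 with the most reads on day 3 and the 2 longest on day 0 were named. Families were defined by symbol, and Mup and defensin genes, with 1 of 22 and 2 of 70 members with an island on day 3 and 0 and 3 on day 0, were counted too. Members and lists were chosen with earlier results of these data known. Other island selections, flank widths, joining distances and scalings were tried. No test between days was possible.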

Additional observations from a re-analysis of the deposited data

How the results depend on the processing

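With islands of at least the median density of their list, the cluster was covered over 1.63% on day 3 and 0.202% on day 0 (difference 1.42 points). Then islands reached 4 members on day 3 and 1 on day 0, the median covered share on day 3 was 0%, 3 members had a day 3 island within 2 kb of a start, the right flank had 0% on day 3, and the difference in Skint3 turned to 0.487 points. With the day 3 list reduced to 19989 islands (204 reads or more), the cluster was covered over 1.83% on day 3 (difference 1.16 points), 4 members had an island, their median was 0%, 1 had one near a start, the left flank had 0%, and the difference in Skint4 turned to -5.41 points. The 4 members were Skint1, Skint4, Skint3 and Skint9 in the first selection and Skint8, Skint3, Skint2 and Skint5 in the second, so 1 gene was shared. With day 0 held to the lowest day 3 density, day 0 coverage was 0.202% (difference 4.27 points), 1 member had an island on day 0, and Skint3 turned to 0.487 points.

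When 10% of the body had to be covered, 3 members counted on day 3 and 1 on day 0. When an overlap had to take 50% of the island, 0 day 0 islands met a day 3 island, while 1 day 3 island still met a day 0 island. A flank of 50 kb gave 0.892% on the left on day 0, and one of 200 kb gave 26.2% on the left and 5.4% on the right on day 3. Joining islands up to 100 kb gave longest stretches of 1232 kb on day 3 and 168 kb on day 0. Joining up to 25 kb gave 33 kb on day 3. The density ratio was 1.03 and 0.524 under the alternative scalings. What gave each of these changes was not tested. No paired analysis was possible because there was 1 library per day. Without input and total reads, depth and enrichment could not be told apart.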
